A study of Mus musculus with 2 samples.

Results

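Intronic shared DHSs are stretches of chromatin inside introns that DNase I cut more than their surroundings in both libraries studied, made from mouse cortex. DNase-seq records where this enzyme cuts chromatin, and a DNase I hypersensitive site (DHS) is a stretch of dense cuts. Calls of both libraries that overlapped were merged, and a merged stretch counted as shared when each library's stricter list contributed to it. It was counted as intronic when its centre lay in an intron of a protein-coding gene (GENCODE release M21), outside all exons and more than 1 kb from any transcription start site (TSS) of a protein-coding or long non-coding gene. Of 26012 shared DHSs, 3737 (14.4%, exact 95% binomial interval 13.9 to 14.8%) met this rule. These intervals, here and below, cover counting error only. The other shared DHSs were 15129 at promoters (within 1 kb of a TSS), 1061 in exons, 625 in introns of non-coding genes and 5460 between genes.

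The tissue came from newborn females of the hybrid strain B6CASTF1/J, a cross of the C57BL/6J and CAST/EiJ strains, at the age of 4 days, and was the cerebral cortex of the left side. All libraries used here share this strain, sex, age and tissue, and the labels name no treatment. There was 1 group of 2 libraries, from biosamples that the labels number as separate females but tie to a single donor record, so no test between groups exists. Each result is given as a description, with the value of each library where it has one. The signal value of a call is the authors' own density, with a scaling that is not given in the sources used here. Levels were therefore compared within a library. Ratios of replicate 2 to replicate 1 are given only to set groups of DHSs against each other. A limit of 0.3 is used below in both libraries, and may stand for a different level in each. Whole tissue mixes cell types, and few cells with an open site cannot be told apart from a weakly open site in many cells.

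Introns hold many enhancers, the stretches that bind transcription factors and act on promoters at a distance, either on the host gene or on a neighbour. They also hold sites of CTCF, a zinc-finger protein that, together with cohesin, anchors chromatin loops. In the newborn cortex, known intronic regulatory elements are bound by basic helix-loop-helix factors of the NEUROD group, by nuclear factor I (NFI) proteins and by MEF2 proteins, while CREB binds the cyclic AMP response element (CRE).

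Sequences were chosen only from members of at most 300 bp, so a printed one need not be the strongest of its kind. Those below had the highest signal values of such members with a given consensus match, or with none, in their central 150 bp. They are from GRCm38 (RefSeq), forward strand, with the bases of the consensus match in capitals. The first pair, from introns of Camta1 (chr4:151141621-151141840) and Nuak1 (chr10:84438121-84438320), match the CTCF consensus, and in both the match reads on the reverse strand.
Camta1: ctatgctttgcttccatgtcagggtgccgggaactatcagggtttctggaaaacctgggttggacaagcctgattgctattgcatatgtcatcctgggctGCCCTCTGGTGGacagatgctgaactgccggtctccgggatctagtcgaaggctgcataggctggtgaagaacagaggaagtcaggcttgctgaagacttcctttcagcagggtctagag
Nuak1: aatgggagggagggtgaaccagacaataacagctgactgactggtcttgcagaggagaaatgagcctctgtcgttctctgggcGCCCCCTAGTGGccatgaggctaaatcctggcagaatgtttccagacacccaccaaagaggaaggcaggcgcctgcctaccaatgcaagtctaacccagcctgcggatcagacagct
Camta1, a calmodulin-binding transcription activator of neurons, held this site in intron 9 of 24, at 12.2 kb from the host TSS, and its signal was 4.22 in replicate 1 and 9.87 in replicate 2. The Nuak1 site lay in intron 1 of this AMPK-related kinase gene, with 3.24 and 8.79 in replicates 1 and 2. Both matches overlapped a footprint, a short run of bases protected from cutting, in both libraries.

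The next 3 carry a CRE in intron 1 of Mxi1 (chr19:53314201-53314460), a MYC antagonist gene, an NFI consensus in intron 2 of Cic (chr7:25279061-25279360), which encodes a transcriptional repressor, and an AP-1 pair in intron 6 of Baiap2 (chr11:119991421-119991620), which encodes a postsynaptic scaffold protein.
Mxi1: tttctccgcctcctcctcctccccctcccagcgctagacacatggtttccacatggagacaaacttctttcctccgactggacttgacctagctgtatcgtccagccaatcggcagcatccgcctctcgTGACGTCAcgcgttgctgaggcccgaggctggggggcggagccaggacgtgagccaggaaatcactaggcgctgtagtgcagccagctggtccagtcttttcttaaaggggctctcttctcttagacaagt
Cic: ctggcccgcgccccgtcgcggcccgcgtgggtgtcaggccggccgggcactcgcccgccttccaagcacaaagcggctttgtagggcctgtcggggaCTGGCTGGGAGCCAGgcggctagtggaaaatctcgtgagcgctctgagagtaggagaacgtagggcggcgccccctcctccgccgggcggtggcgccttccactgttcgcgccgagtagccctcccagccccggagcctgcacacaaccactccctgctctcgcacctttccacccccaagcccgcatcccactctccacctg
Baiap2: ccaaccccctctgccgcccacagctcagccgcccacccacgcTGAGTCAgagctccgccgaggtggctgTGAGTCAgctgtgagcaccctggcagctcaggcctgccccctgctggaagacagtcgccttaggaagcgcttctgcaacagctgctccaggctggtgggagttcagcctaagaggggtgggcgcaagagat
The signal of the Mxi1 site was 2.86 in replicate 1 and 12.1 in replicate 2, and its CRE was footprinted in both. The Cic site had 2.40 and 7.43, and its NFI match was footprinted in both libraries as well. The Baiap2 site had 2.24 and 6.10, and of its 2 AP-1 matches none was footprinted in replicate 1 and 1 in replicate 2. Baiap2 also held a CTCF match, which is not marked. A wider site, of 320 bp in Cdkn1a, held an AP-1 match too and was stronger, with 3.63 in replicate 1 and 10.7 in replicate 2.

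The last of the set is the intronic shared DHS with the highest signal values, in intron 19 of Zc3h7a (chr16:11144171-11144320), a zinc-finger gene.
Zc3h7a: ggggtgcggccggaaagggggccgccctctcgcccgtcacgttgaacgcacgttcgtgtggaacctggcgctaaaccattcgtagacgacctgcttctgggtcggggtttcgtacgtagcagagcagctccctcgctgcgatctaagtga
Its signal was 24.2 in replicate 1 and 32.4 in replicate 2, and it held no match to any of the 25 consensus sequences. A search of the assembled chromosomes found 6 other places that matched at least 80% of its length at 90% identity or more, the closest at 99.3%. By background knowledge its letters read as large-subunit ribosomal RNA, whose genes lie in arrays mostly outside the assembled chromosomes. No annotation used here holds a full copy of that gene, so this identity was not tested.

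The 10 strongest intronic shared DHSs, by mean rank of the signal value over both libraries, lay in Zc3h7a, Il31ra, Mid1 (3 sites), Gphn, Jarid2, Cdkn1a, Camta1 and Mxi1. Of these, 6 matched another place of the assembled chromosomes, against 7 of the strongest 100 and 51 of the 3715 that could be searched (1.37%). The Il31ra site (17.5 in replicate 1, 29.2 in replicate 2) had 6 further places. A Jarid2 site (9.28 and 12.4) had 4. The Gphn site (8.55 and 13.6) had none on the assembled chromosomes. By the same background knowledge the Il31ra and Gphn letters also read as large-subunit ribosomal RNA, and whether their signal comes from these introns was not tested. Mid1, a ubiquitin ligase gene that spans the boundary of the pseudoautosomal region, held 12 intronic shared DHSs, of which 10 matched another place of the assembled chromosomes. Its strongest site had 7.68 in replicate 1 and 26.2 in replicate 2. The part of such repeated sequence in these signal values was not tested. Among members with no other place, those of Gphn, Cdkn1a (3.63 and 10.7), which encodes an inhibitor of cyclin-dependent kinases, Camta1 and Mxi1 stood highest.

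Over all members the median signal value was 0.943 in replicate 1, with quartiles of 0.724 and 1.27, and 1.76 in replicate 2, with quartiles of 1.21 and 2.59. Intergenic shared DHSs had medians of 0.962 in replicate 1 and 1.78 in replicate 2. Promoter DHSs had higher medians, of 1.33 and 3.30. The gap between members and promoters was wider in replicate 2, as the median ratio of replicate 2 to replicate 1 was 1.82 over intronic and 2.45 over promoter shared DHSs. Across the 3737 members, Pearson's r between both libraries was 0.870 on the log2 scale and Spearman's rho 0.820. Across promoter DHSs these were 0.925 and 0.929, and across intergenic ones 0.871 and 0.846. These describe regions that share 2 libraries, and carry no test. Members were narrow, with a median width of 200 bp (quartiles 180 and 260), against 390 bp at promoters, 249 bp in exons and 205 bp between genes. All 3737 covered 0.956 Mb, and 3547 were made of a single call from each library.

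**Figure D1:**
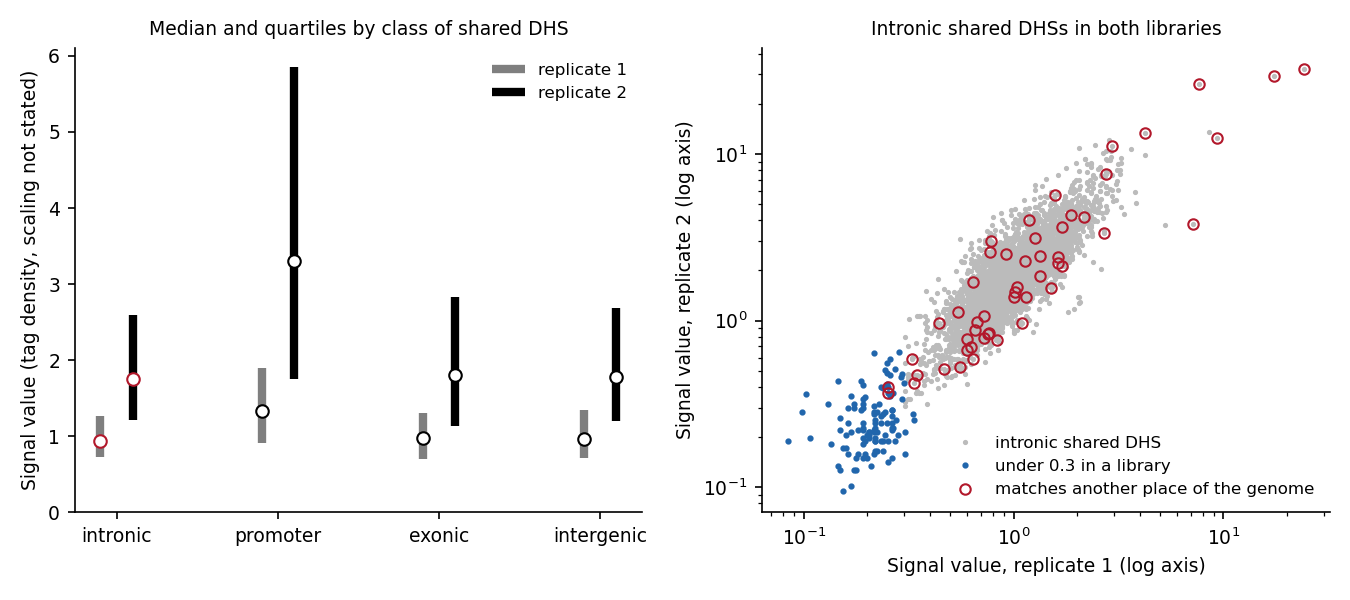
Left, median (open circle) and quartiles (bar) of the authors' signal value in replicates 1 and 2 for intronic, promoter, exonic and intergenic shared DHSs; intronic medians were 0.943 and 1.76, against 1.33 and 3.30 at promoters. Right, each intronic shared DHS by its signal value in both libraries on log axes. Blue marks those under the limit of 0.3 in a library. Those that match another place of the genome (red rings) include most of the highest values.

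Weak members, under a limit set here at 0.3, were described separately: 112 had a signal value below it in at least 1 library. Their median ratio of replicate 2 to replicate 1 was 1.12, against 1.83 in the other 3625. Choosing members by a low value in either library bears on this ratio. None held a CTCF match, and a footprint was present in 58.0% of them in replicate 1 and 49.1% in replicate 2, against 95.4% and 97.4% of the others. They were bunched: 9 genes with 5 or more held 71 of the 112 (63.4%). Ctnnbl1, a gene of a splicing-associated protein, held 16 intronic shared DHSs within 36.9 kb, with a median of 0.229 in replicate 1 and 0.221 in replicate 2. Pdzk1, Npr2 and B4galt5 held 8, 7 and 7, all weak in at least 1 library. Why these stretches were called in both libraries was not tested.

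At the limit of the rule, the 318 members between 1 and 1.5 kb from the nearest TSS had medians of 0.899 in replicate 1 and 1.72 in replicate 2, a median GC content of 59.3% and a CTCF match in 5.66%. The 910 intronic shared DHSs just outside it, at 0.5 to 1 kb, had medians of 0.836 and 1.45, a GC content of 65.3% and a CTCF match in 2.31%.

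Introns outside exons and promoter windows made up 890 Mb, or 33.6% of the genome outside assembly gaps, and held 4.20 shared DHSs per Mb. Intergenic sequence held 3.78 per Mb, exons 12.3 and promoter windows 194. The ratio of intronic to intergenic density was 1.11. It was 1.20 with all calls of replicate 1 and 1.35 with all calls of replicate 2. Among autosomes, intronic density ran between 3.10 per Mb on chromosome 1 and 6.31 on chromosome 11, with a median of 4.21. Chromosome X held 61 members, or 1.55 per Mb, below every autosome.

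Intronic shared DHSs thinned out with distance from the host TSS. At 1 to 2.5 kb there were 15.5 per Mb of intron, at 2.5 to 5 kb 6.64, at 5 to 10 kb 4.59, at 50 to 100 kb 3.39 and beyond 250 kb 2.08. All calls of either library showed the same order at these distances, at 33.6, 20.8, 17.4, 14.7 and 10.2 per Mb in replicate 1 and 35.0, 15.6, 11.6, 9.26 and 5.90 per Mb in replicate 2. The median member lay 22.7 kb from the host TSS (quartiles 5.79 and 69.7 kb), in an intron of 11.0 kb. For 1539 members (41.2%) the nearest TSS belonged to a gene other than the host. The next shared DHS of any class was at a median of 14.6 kb, and 841 members (22.5%) had one within 2 kb.

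First introns held 1036 members (27.7%, interval 26.3 to 29.2%) at 4.66 per Mb, and later introns 2701 at 4.04 per Mb, a ratio of 1.15. The order differed with the distance. At 1 to 2.5 kb from the TSS first introns held 16.9 per Mb against 13.0 in later ones, but at 5 to 10 kb they held 3.72 against 5.22, and at 50 to 100 kb 2.69 against 3.55. Among DHSs more than 2.5 kb from any TSS, the ratio was 0.852. Beyond 250 kb first introns again stood higher, at 5.07 per Mb against 1.84, but 34 of those 41 DHSs were assigned to Gm20388. This gene model spans 4.43 Mb of chromosome 8 and 71 protein-coding genes lie inside it. For all of its 36 members the nearest TSS belonged to another gene.

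**Figure D2:**
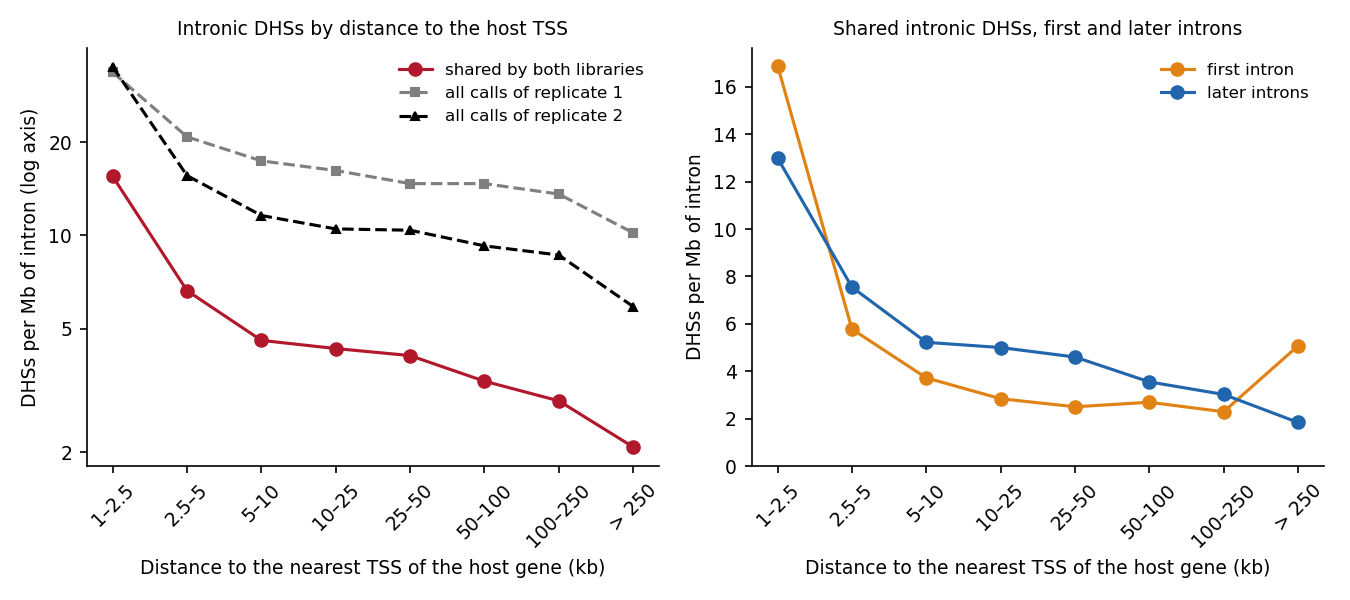
Intronic DHSs per Mb of intron by distance to the nearest TSS of the host gene. Left, shared DHSs (red) and all calls of replicates 1 and 2 on a log axis, which fall with distance in all 3 sets; right, shared DHSs of first introns against later introns, with first introns higher at 1 to 2.5 kb (16.9 against 13.0) and lower at 2.5 to 250 kb; beyond 250 kb, 34 of the 41 DHSs of first introns are members of Gm20388.

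The sequence under intronic shared DHSs was richer in G and C than the introns around them: the median GC content of the central 150 bp was 55.3% (quartiles 50.7 and 59.3), against 47.3% in 5837 intronic windows centred 1 kb away and outside calls. Promoter DHSs had 66.7%. The observed to expected ratio of CpG had a median of 0.303 in members and of 0.835 at promoters, so members were mostly poor in CpG. Repeats masked in the reference covered at least 50% of the interval in 76 members (2.03%), and of the flanking window in 16.9% of flanks.

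CTCF matches set the members apart from promoters. Of the 3737, 757 (20.3%, interval 19.0 to 21.6%) had a CTCF match in the central 150 bp, against 5 of 5837 flanking windows (0.0857%) and 1.32% of promoter, 11.5% of exonic and 18.9% of intergenic shared DHSs. Over all shared DHSs the share was 8.47%. With all intronic calls of a single library it was 6.02% in replicate 1 and 11.0% in replicate 2. The share went up with the signal value, and was 6.82% in the lowest of 5 equal classes of members by mean rank, 18.9%, 23.6% and 24.4% in the next 3 and 27.7% in the highest. It also depended on distance: 35 of 533 members (6.57%, interval 4.62 to 9.01%) at 1 to 2.5 kb from the host TSS had a match, against 22.5% (21.1 to 24.0%) of the 3204 farther away. The median signal of members with a CTCF match was 1.10 in replicate 1 and 1.93 in replicate 2, against 0.901 and 1.71 in those without. The match read in the direction of the host gene in 342 of 757 (45.2%, interval 41.6 to 48.8%).

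Among consensus sequences with over 50 matches, CTCF was also the most regularly footprinted. Of 792 matches in whole members, 98.0% overlapped a footprint in replicate 1 and 99.1% in replicate 2, and 775 (97.9%) did so in both. Footprints covered the centre of the match in 97.2% of 757 sites in replicate 1 and 98.9% in replicate 2. A second protected stretch lay 20 bp before the centre of the match, read along the consensus, in 39.1% of sites in replicate 1 and 57.7% in replicate 2. At 20 bp after the centre the shares were 13.5% and 26.8%. CTCF is known to contact an additional motif upstream of its core at some sites. The Camta1 and Nuak1 sequences above show the core on the reverse strand, so this side lies to the right of the capitals.

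**Figure D3:**
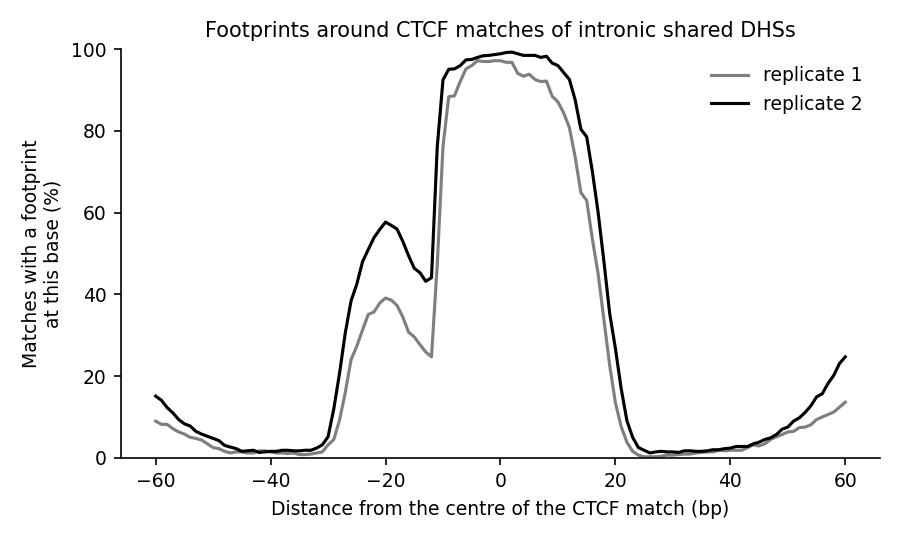
Share of the 757 CTCF matches (%) that had a footprint at each base, by distance in bp from the centre of the match read along the consensus, in replicates 1 and 2. Both lines reach over 97% at the centre, and a second, lower rise lies 20 bp before it (39.1% and 57.7%).

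Of the 25 consensus sequences searched on both strands, 8 had a share in members whose interval lay above that of the flanks, 1 lay below and 16 overlapped. At least 1 of the 25 was matched in 38.8% of members and 20.6% of flanks, and members without a CTCF match made up 692 of the 1449 matched. Flanks differ from members in GC content, so the difference in a share is not read as binding. The E-box of NEUROD factors, CAGATGG, had a match in 240 members (6.42%, interval 5.66 to 7.26%), against 3.96% of flanks, 1.68% of promoter and 7.18% of intergenic DHSs. The CRE, TGACGTCA, was matched in 23 members (0.615%), against 3 flanks (0.0514%) and 1.82% of promoter DHSs. NFI, with 37 members (0.990%), had 2 flank matches (0.0343%) and 0.258% of promoter DHSs. For RFX, the ciliary and neuronal winged-helix factors, 12 members (0.321%) stood against 0 of 5837 flanks, which allows a share of up to 0.0632% (the upper bound of the exact interval).

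The consensus sequences of promoters were rarer here. GGGGCGGGG, bound by SP and KLF proteins, was matched in 1.82% of members, against 0.600% of flanks and 11.0% of promoter DHSs. CCGGAAGT, bound by ETS proteins, was matched in 0.161% of members, 0.206% of flanks and 3.84% of promoter DHSs. SOX proteins bind AACAATG, and its share of 1.36% in members lay below the 2.19% of flanks. AP-1, whose consensus TGANTCA is bound by FOS and JUN after neuronal activity, had 3.29% in members and 4.25% in flanks, with overlapping intervals. N stands for any base.

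**Figure D4:**
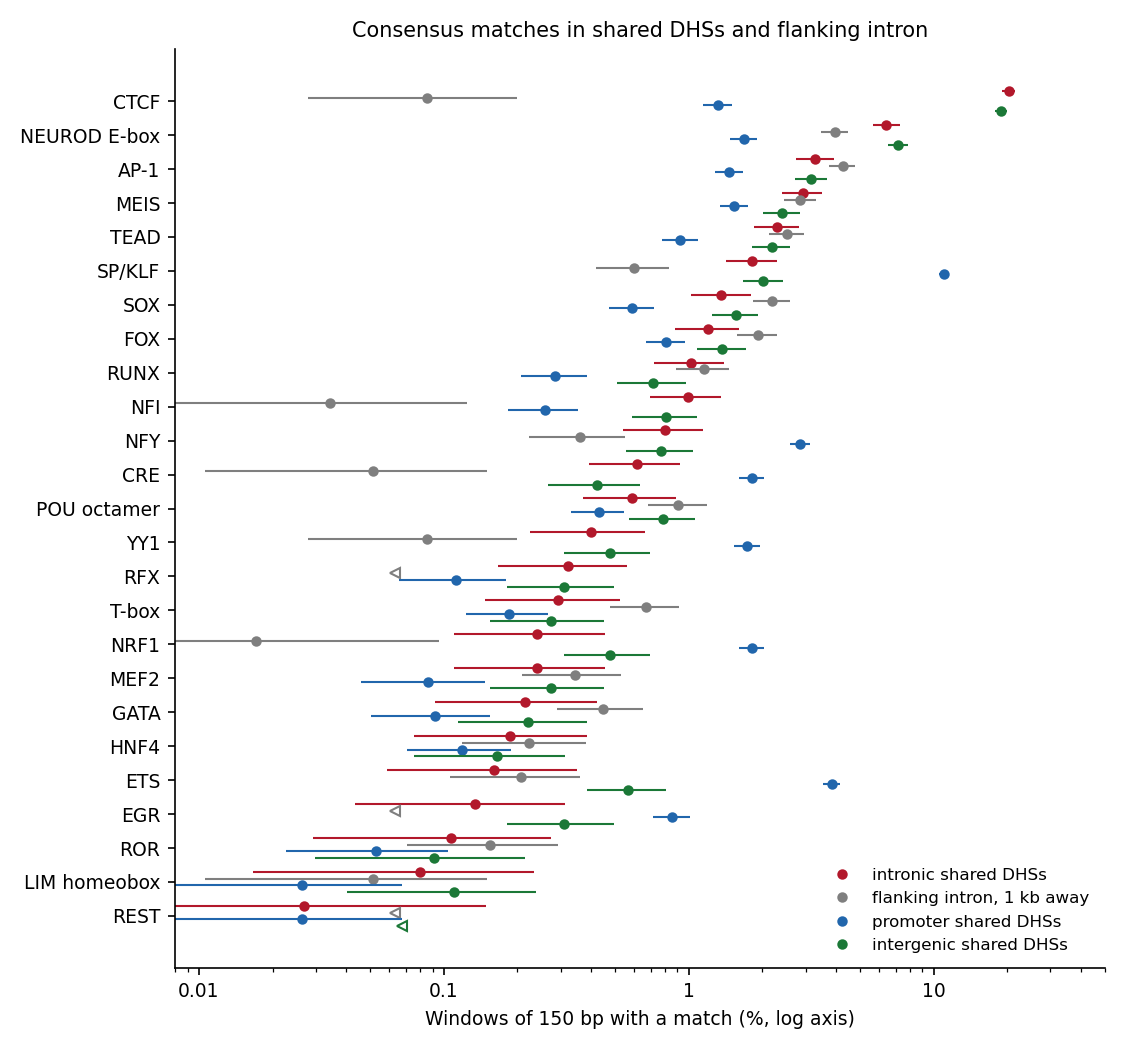
Share of 150 bp windows (%, log axis) with a match to each of 25 consensus sequences in intronic shared DHSs (red), flanking intron (grey), promoter (blue) and intergenic (green) shared DHSs. Points are shares and lines exact 95% binomial intervals, cut at the axis; open triangles mark the upper bound where no window matched. CTCF reached 20.3% of intronic DHSs against 0.0857% of flanks and 1.32% of promoter DHSs.

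Footprints were called in nearly every member: 94.3% held at least 1 in replicate 1 and 96.0% in replicate 2, against 91.6% and 94.0% of promoter and 96.0% and 97.2% of intergenic DHSs. Over all intronic calls of a single library the shares were lower, at 52.7% in replicate 1 and 87.2% in replicate 2. Replicate 1 had 9121 footprints in members and replicate 2 had 12247, of which 66.9% and 45.9% were overlapped by a footprint of the other library. Consensus sequences differed widely in this readout. NFI matches were footprinted in 90.7% (replicate 1) and 96.3% (replicate 2) of 54, and E-box matches in 31.7% and 44.6% of 372. CRE matches had 28.6% and 71.4% of 35. AP-1 matches had 9.90% and 18.3% of 202. SOX matches had 16.7% and 18.9%, and matches to the FOX consensus TGTTTAC 4.94% and 8.64%. A match counted when a footprint overlapped any part of it, which a longer consensus meets more easily. Footprints covered 13.1% of all member bases in replicate 1 and 19.8% in replicate 2. The bases of NFI matches (74.6% and 94.8%) and E-box matches (27.9% and 38.3%) lay above this. Those of AP-1 (5.52% and 9.26%), SOX (8.10% and 9.37%) and FOX matches (2.65% in both) lay below.

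In the stricter lists, most intronic calls were not overlapped by a call of the other library. Of 14295 intronic calls in the stricter list of replicate 1, 3937 (27.5%) were overlapped by a call of replicate 2, and of 9710 in replicate 2, 3887 (40.0%) by one of replicate 1. At promoters the shares were 83.3% and 80.1%. Between genes they were 29.5% and 48.3%, and in introns of non-coding genes 30.2% and 45.8%, so low overlap was not particular to these introns. In replicate 1, 9834 intronic calls had no counterpart in either list of replicate 2, with a median signal value of 0.154. Of its intronic calls 65.0% lay under 0.3, and of its intergenic calls 63.9%. In replicate 2, 2985 had no counterpart in either list of replicate 1, with a median of 0.717, a further 2838 had one in its lenient list, and 5.84% of intronic calls lay under 0.3. In the stronger 50% of each list, most intronic calls were overlapped, at 64.0% in replicate 1 and 76.1% in replicate 2. With calls under 0.3 left out of both libraries, 76.0% of the intronic calls of replicate 1 were overlapped, and 41.1% of those of replicate 2.

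Of 19562 protein-coding genes with intron sequence that could hold a member, 2605 (13.3%, interval 12.8 to 13.8%) did. Among these, 1928 held 1, 677 at least 2, 219 at least 3 and 45 at least 5. The share followed the length of intron available: it was 2.35% for genes with under 5 kb, 14.4% at 20 to 50 kb and 57.4% above 250 kb. A shared promoter DHS was present in 74.0% of host genes, against 56.5% of the other genes and 58.9% of all 19562. The gap was widest in genes with short introns. Under 5 kb it was 68.3% of hosts against 37.7% of other genes, and at 50 to 100 kb 75.7% against 75.9%.

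Gm20388 (36), Ctnnbl1 (16), Mid1 (12), Maml3, Pde4d and Sfi1 (10 each), and Glis1, Ighmbp2 and Trappc9 (9 each) held the most members, followed by Camta1, Fgfr2, Pdzk1 and Phactr3 with 8. With the weak members left out, Ctnnbl1, Glis1, Ighmbp2 and Trappc9 were no longer among the first 10, and Jarid2 followed Fgfr2 with 7. Maml3, a coactivator of Notch signalling, held its 10 between 51701401 and 52103440 on chromosome 3, of which 7 were in intron 1. Their signal values ran between 0.644 and 1.29 in replicate 1 and between 1.02 and 3.92 in replicate 2. Pde4d, a cyclic AMP phosphodiesterase gene, had 10 spread over 769 kb, at medians of 0.810 and 1.48. The 10 of Sfi1, a centrosome gene, had a median of 2.03 in replicate 1 and 1.41 in replicate 2, and 4 of them were at least 50% repeat-masked. Their median ratio of replicate 2 to replicate 1 was 0.735, against 1.82 over all members, and ratios under 1 were also found for Trappc9 (0.843), Glis1 (0.915) and Pdzk1 (0.977).

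Hosts among the gene lists were read against the 13.3% of all genes and the 4.20 members per Mb of intron, since long genes hold more. Axon guidance genes had members in 14 of 20 (70.0%), at 4.03 per Mb. Slit3, which encodes a secreted guidance cue, held 6, with signal values between 0.537 and 1.06 in replicate 1 and between 0.930 and 2.21 in replicate 2. Robo1, a receptor of Slit proteins, held 4, between 0.546 and 0.925 and between 1.14 and 1.43. The coreceptor gene Nrp1 and the ligand gene Slit2 held 2 each. Epha4, Ntn1, Robo2, Sema3a, Sema3c and Unc5d held none.

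Synaptic adhesion and scaffold genes had members in 13 of 21 (61.9%), but at 2.55 per Mb, below the density over all genes. Dlgap1, a postsynaptic scaffold gene, held 6, of which 3 matched CTCF, with values between 0.420 and 1.35 in replicate 1 and between 0.922 and 3.46 in replicate 2. Nrxn3, a presynaptic adhesion gene of 1515 kb of intron, held 5. Ion channel and receptor genes had members in 11 of 21 (52.4%) at 3.80 per Mb. Cacna1a, the P/Q-type calcium channel gene, led them with 5, between 0.696 and 1.49 and between 1.42 and 2.85. Scn1a, Scn2a and the genes of 3 GABA-A receptor subunits held none.

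Among lists of cell types, neuronal identity genes had modest counts. Glutamatergic neuron genes had members in 6 of 16 (37.5%) at 3.86 per Mb, and upper-layer genes in 4 of 9 at 6.07 per Mb. Deep-layer genes had members in 5 of 13 at 2.60 per Mb and interneuron genes in 5 of 20 at 2.91 per Mb. Mef2c, a transcription factor gene of excitatory neurons, held 2. The one in intron 1 had 1.07 in replicate 1 and 2.23 in replicate 2, and the one in intron 9, with a CTCF match, 0.985 and 2.65. Cux1, an upper-layer homeobox gene, also held 2, both with a CTCF match, with 0.897 and 1.01 in replicate 1 and 2.35 and 1.29 in replicate 2. Dlx5, a homeobox gene of forebrain interneurons, held 3, all weaker than the median member, between 0.383 and 0.635 in replicate 1 and between 0.772 and 0.859 in replicate 2.

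Among glial and vascular lists, oligodendrocyte lineage genes had members in 6 of 16 at 6.78 per Mb, with 2 in Mbp (myelin basic protein), at 1.42 and 1.21 in replicate 1 and 3.43 and 1.77 in replicate 2. Astrocyte genes had members in 5 of 18 at 3.16 per Mb. Nfia, which encodes an NFI protein of gliogenesis, held 1 of the stronger members, at 2.35 in replicate 1 and 8.85 in replicate 2, and a weaker one at 0.598 and 1.33. Nfib held 1, at 0.915 and 3.22. Endothelial and mural genes had members in 6 of 18 at 9.85 per Mb. Pecam1 held 3, between 0.789 and 1.03 in replicate 1 and between 1.27 and 2.39 in replicate 2, and Vwf, the von Willebrand factor gene, held 3 too, between 0.948 and 1.34 and between 1.40 and 1.59. Neither gene had a shared promoter DHS. Microglia genes had members in 3 of 17, with 1 each in Spi1, Runx1 and Ptprc.

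Lists of other tissues had members in 1 of 16 hepatocyte genes (3.81 per Mb), 1 of 12 erythroid genes (6.36 per Mb), 2 of 16 muscle genes (3.09 per Mb) and 4 of 15 lymphocyte genes (6.27 per Mb). The lymphocyte share was 26.7%, with an interval of 7.79 to 55.1%. Several lists of the brain had a lower share. Among these, 2 of 13 radial glia and progenitor genes had members (15.4%, interval 1.92 to 45.4%, 3.50 per Mb). So did 2 of 12 meningeal and choroid plexus genes (16.7%, interval 2.09 to 48.4%, 9.45 per Mb). These intervals overlap, and each includes the 13.3% of all genes. The order of these shares is therefore not read as a result. By density, the erythroid list (2 members, both in Ank1) and the lymphocyte list (6 members) lay above the 4.20 per Mb of all introns. Both also lay above the 3.86 of glutamatergic genes. These densities, like that of the meningeal and choroid plexus list (2 members), rest on few members and carry no interval. Density also fell with distance from the host TSS, and the part of gene length in these densities was not tested. The lists of other tissues had a median intron length per gene between 8.03 and 16.9 kb, against 15.1 kb over all genes and 48.5 kb for the glutamatergic list. Cell-type lists of the brain differed widely, between 9.52 kb (meningeal and choroid plexus) and 145 kb (deep layers). Microglia (9.72 kb), astrocyte (10.6 kb) and radial glia genes (14.0 kb) lay in the range of the other tissues. Shared promoter DHSs, which the choice of members did not use, were present in 0 of 16 hepatocyte, 1 of 16 muscle, 1 of 15 lymphocyte and 3 of 12 erythroid genes, against 58.9% of all genes. In lists of the brain they were present in 9 of 9 upper-layer, 10 of 13 radial glia and 9 of 16 glutamatergic genes. Deep-layer genes had them in 7 of 13, interneuron genes in 9 of 20, astrocyte genes in 9 of 18. The oligodendrocyte lineage list had 7 of 16, endothelial and mural 6 of 18, microglia 2 of 17 and meningeal 2 of 12. Among these cell-type lists of the brain, only the upper-layer and radial glia ones lay above the 58.9% of all genes. The lists by function all lay above it. Shared promoter DHSs were present in 20 of 21 ion channel, 18 of 21 synaptic and 17 of 20 axon guidance genes. Activity-regulated genes had them in 13 of 13, neurodevelopmental transcription factor genes in 17 of 26 and chromatin remodelling genes in 20 of 23. No interval is given for these promoter shares. For the share of genes with an intronic member, intervals over so few genes are wide. That of the erythroid list (1 of 12) runs between 0.211 and 38.5%, and includes the 13.3% of all genes. The intervals of the interneuron, astrocyte and microglia lists include it too.

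Neurodevelopmental transcription factor genes had members in 11 of 26 (42.3%) at 2.95 per Mb. Myt1l, a zinc-finger gene of neuronal identity, held 5, between 0.630 and 1.15 in replicate 1 and between 1.69 and 4.43 in replicate 2. Auts2 held 2, and Tcf4 and Zbtb20 1 each. Foxp1 and Gli3 had a shared promoter DHS but no intronic one, and Bcl11a and Sox5 had neither. In activity-regulated genes members lay in 3 of 13, and the Npas4 site, in intron 1, was the single member with a REST match in its central window, with signal values of 1.04 and 2.03. REST represses neuronal genes in other cells. The Bdnf site, 1.19 kb from the nearest Bdnf TSS, had 0.738 in replicate 1 and 2.43 in replicate 2. Chromatin remodelling genes had members in 10 of 23 (43.5%) at 4.53 per Mb, with 2 each in Chd3 and Smarca2.

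**Figure D5:**
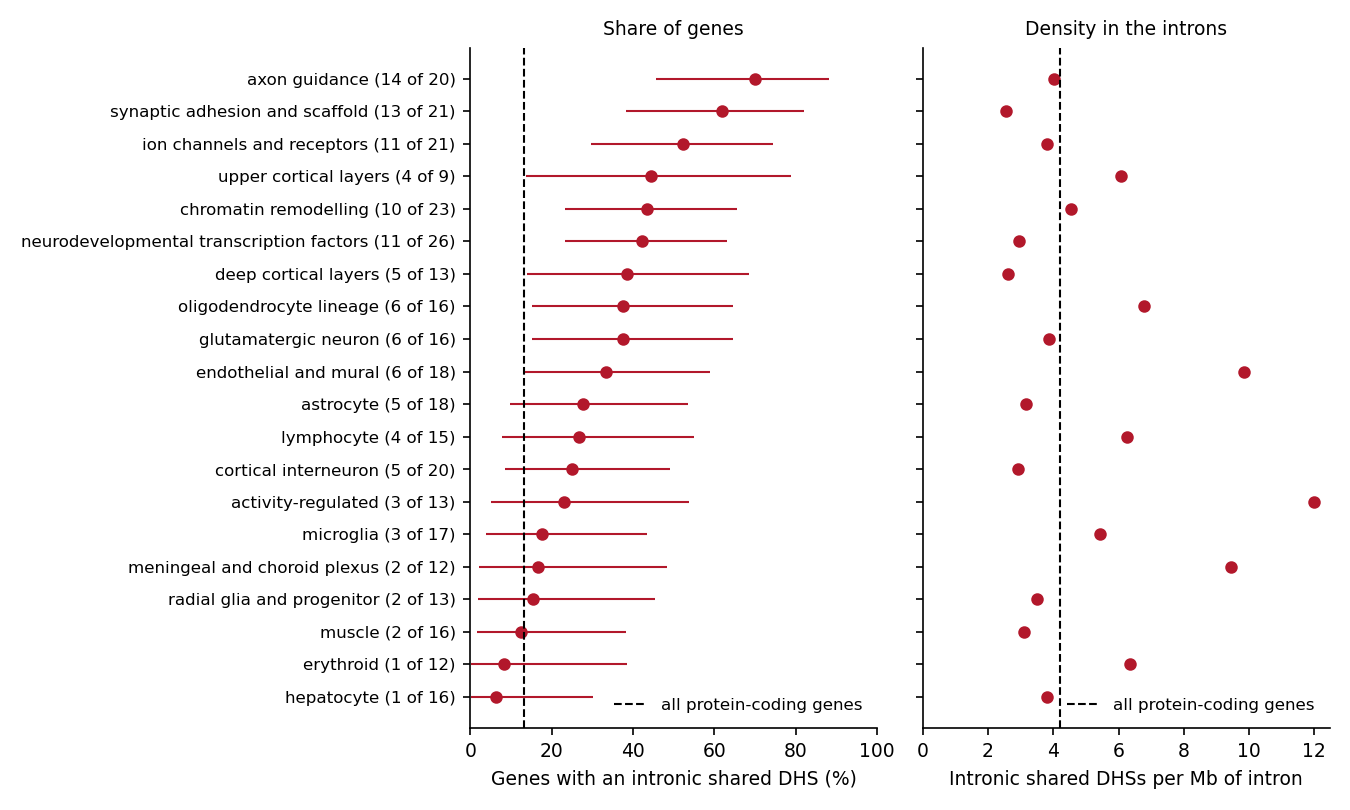
Left, share of each list's genes (%) with at least 1 intronic shared DHS, with exact 95% binomial intervals; right, intronic shared DHSs per Mb of the list's introns. Dashed lines mark all protein-coding genes (13.3% and 4.20 per Mb); axon guidance and synaptic lists lie far right of the line in share but at or below it in density.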

How the data were processed

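DNase-seq of the left cortex was measured in 2 libraries. Per the file headers, calls, false discovery rates and footprints were made by the authors in each library separately, on mm10. Caller, aligner and read depth: not given in the sources used here, so the precision of a single signal value is unknown. The deposited signal values are a density per call of unstated scaling. The deposited FDR values (a p-value type of unit) belong to the cut rate and are given for runs of bases where they lie under 0.05. The footprint files carry a constant of 0.01 set by the authors.

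Each library has a stricter call list, taken as the one with fewer lines (59355 calls in replicate 1, 46566 in replicate 2), and a lenient one (92872 and 81087). Calls of the stricter lists that overlapped by at least 1 bp were merged in Python, and FDR values were assigned to shared DHSs with bedtools 2.31.1. Positions came from the basic GENCODE M21 annotation, and densities used introns outside exons, promoter windows and assembly gaps. Consensus matches were sought on both strands in the central 150 bp of each DHS and in intronic windows 1 kb to either side that held no call. Further places of a sequence were sought with blastn 2.17.0 on the assembled chromosomes, at 90% identity over 80% of the length, with 22 members too masked to be searched. Statistics used Python 3.11.15, numpy 2.4.6, pandas 2.3.3 and scipy 1.17.1, and the scripts were tested on simulated data. Intervals are exact binomial ones at the 95% level.

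The members, the gene lists and the consensus sequences were chosen with earlier results of these data known. Genes were named by a rule: the hosts with most members, the hosts of the strongest members, the leading genes of each list, a fixed set of transcription factor genes and the hosts of printed sequences. Part of these are described, together with genes of a list that held no member. Alternatives were other call lists, overlaps, distances, windows and annotations, and each library alone. Read-level files and signal tracks were not used here.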

Additional observations from a re-analysis of the deposited data

How the results depend on the processing

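Of the alternatives, 94 values moved by less than the spread between the single libraries (or stayed within the limits given next), 63 moved by more and 1 reversed. Overlap shares were held to the exact interval of the reported share. Counts were held to a fixed fold range around the reported count. This range is loose: 6 and 12 consensus sequences above flanks, against 8 as reported, counted as unmoved. The reversed value was the ratio of first to later intron density, 1.15, which was 0.852 more than 2.5 kb from a TSS. The cause was not tested.

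With the lenient lists there were 8979 members, making up 20.9% of shared DHSs, an intronic to intergenic density ratio of 1.26, a first to later intron ratio of 1.23, a ratio of density within 10 kb to that beyond 50 kb of the host TSS of 2.02 (2.61 as reported), a CTCF match in 13.0%, footprints in 85.4% (replicate 1) and 91.1% (replicate 2), host genes at 23.1%, and overlap of intronic calls of 38.8% and 44.6%. With the stronger 50% of each list there were 2398 members, CTCF in 23.9%, footprints in 97.6% and 99.7%, host genes at 9.48% and overlap of 64.0% and 76.1%. With the 20000 strongest calls there were 1703 members (10.6%), a distance ratio of 3.37, CTCF in 26.0%, footprints in 98.5% and 99.9%, host genes at 7.13% and overlap of 77.1% and 71.0%. With signal values of 0.3 or more, footprints in replicate 2 were at 97.4% and overlap at 76.0% and 41.1%.

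Beyond 2.5 kb from a TSS the intronic share was 12.1%, the distance ratio 1.87, footprints 96.2% and 97.2%, and overlap 25.2% and 38.9%. Beyond 0.5 kb these were 17.9% for the share, 1.27 for the density ratio, 1.83 for the intron ratio, 88.8% and 90.7% for footprints, and 31.7% and 43.6% for overlap. With the whole interval in the intron the intron ratio was 1.25. With 1 DHS per host gene, footprints were at 96.3% and 98.0%. With an overlap of at least 50% of the shorter call, 26.8% and 39.0% of calls were overlapped.

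Without replicate 1 and without replicate 2 there were 9536 and 13838 members, at 21.2% and 24.4% of DHSs. The density ratio was 1.35 and 1.20, the intron ratio 1.25 and 1.15, the distance ratio 2.18 and 1.67, CTCF 11.0% and 6.02%, median GC 54.7% and 51.3%, and host genes 22.6% and 18.2%. Footprints were at 52.7% in replicate 1 without replicate 2, and 87.2% in replicate 2 without replicate 1.

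Chosen after seeing the data were the comprehensive annotation (3270 members), leaving out Gm20388 (3701) and leaving out repeated sequence (3664). Only part of the results was recomputed with each, and none of those moved beyond the limits above. Without Gm20388 they were the number of members, the CTCF share and the intron ratio. The distance ratio was recomputed under none of these alternatives. The number of consensus sequences above flanks ranged between 6 and 12, and that of gene lists above all genes between 16 and 18. No paired analysis was possible because there is 1 group and no comparison between groups. With 2 libraries, of unstated depth, differences between classes carry no error over animals.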
